A study of Mus musculus with 30 samples.

Results

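The 10 genes described here encode 3 receptors of the ErbB family (Egfr, Erbb2 and Erbb3), 5 ligands of the EGF family (Areg, Ereg, Hbegf, Tgfa and Btc), the receptor Met and its ligand Hgf. They were chosen by name, with earlier results of these data known, and all 10 have a row in the deposited table of 53431 genes. RNA-seq was done on 30 libraries from CT-26 and Colon 26, both carcinoma cell lines of the mouse colon from the BALB/c strain. The 8 groups are 3 cultures of each cell line and 4 tumors of each model at 100, 400 and 800 mm3, grown from cells implanted under the skin, on the right flank, in BALB/c mice (all female) whose age the labels do not give. The tumors measured 103.33 to 145.86, 400.47 to 464.68 and 810.36 to 938.57 mm3 in CT-26, and 102.9 to 124.88, 401.52 to 466.73 and 807.93 to 963.18 mm3 in Colon 26. The shared treatment text describes dosing with antibodies but the labels assign none to a sample, so the tumors are described as carrying no treatment label. Each model is 1 cell line, and the methods name 2 suppliers of Colon 26 without saying which stock was sequenced.

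EGFR is a receptor tyrosine kinase that dimerizes when one of its ligands binds, and signals through the MAPK and PI3K pathways. ERBB2 binds no ligand of its own and acts as a partner of the other receptors, and ERBB3 has a weak kinase domain and binds neuregulins. The ligands are made as membrane proteins and are released by ADAM proteases, whereas HGF is a separate growth factor, made mostly by mesenchymal cells, that activates MET. In the gut these receptors carry signals for growth and repair of the epithelium, and the EGFR and MET pathways are known for their role in colorectal cancer.

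Counts on genes summed to 21384730 to 27856380 in CT-26 cultures, 36042940 to 39722586 in Colon 26 cultures, and 22923606 to 35681914 in tumors. The cultures of the 2 lines and the tumors carry library numbers of separate series, so library series and model cannot be told apart in culture, nor library series and tissue between culture and tumor. Both labels were checked against 8 markers of colon epithelium, which neither line carries in full. In both cultures Epcam and Cdh1, which encode adhesion proteins of epithelial cells, were under 0.1 CPM (the usual depth-scaled count, here on edgeR's TMM-normalized library sizes) in every library. Krt20, a keratin of differentiated gut epithelium, was the highest of them in CT-26 tumors (90.0 to 239 CPM). Cdx2, a gut transcription factor, was at 3.86 to 6.32 CPM in Colon 26 tumors and at most 0.383 in CT-26 tumors. The markers tested in tumors of 100 mm3 went both ways. By log2 fold change of Colon 26 over CT-26, Krt18 (-8.69) and Krt20 (-3.15) were lower. Cdx2 (4.70), Krt19 (1.77) and Cdh1 (1.09) were higher. A bulk library cannot tell fewer cells of a type from less RNA per cell, and this holds for every tumor value given here. The plot of the 10 genes by library shows their levels in CPM.

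**Figure D1:**
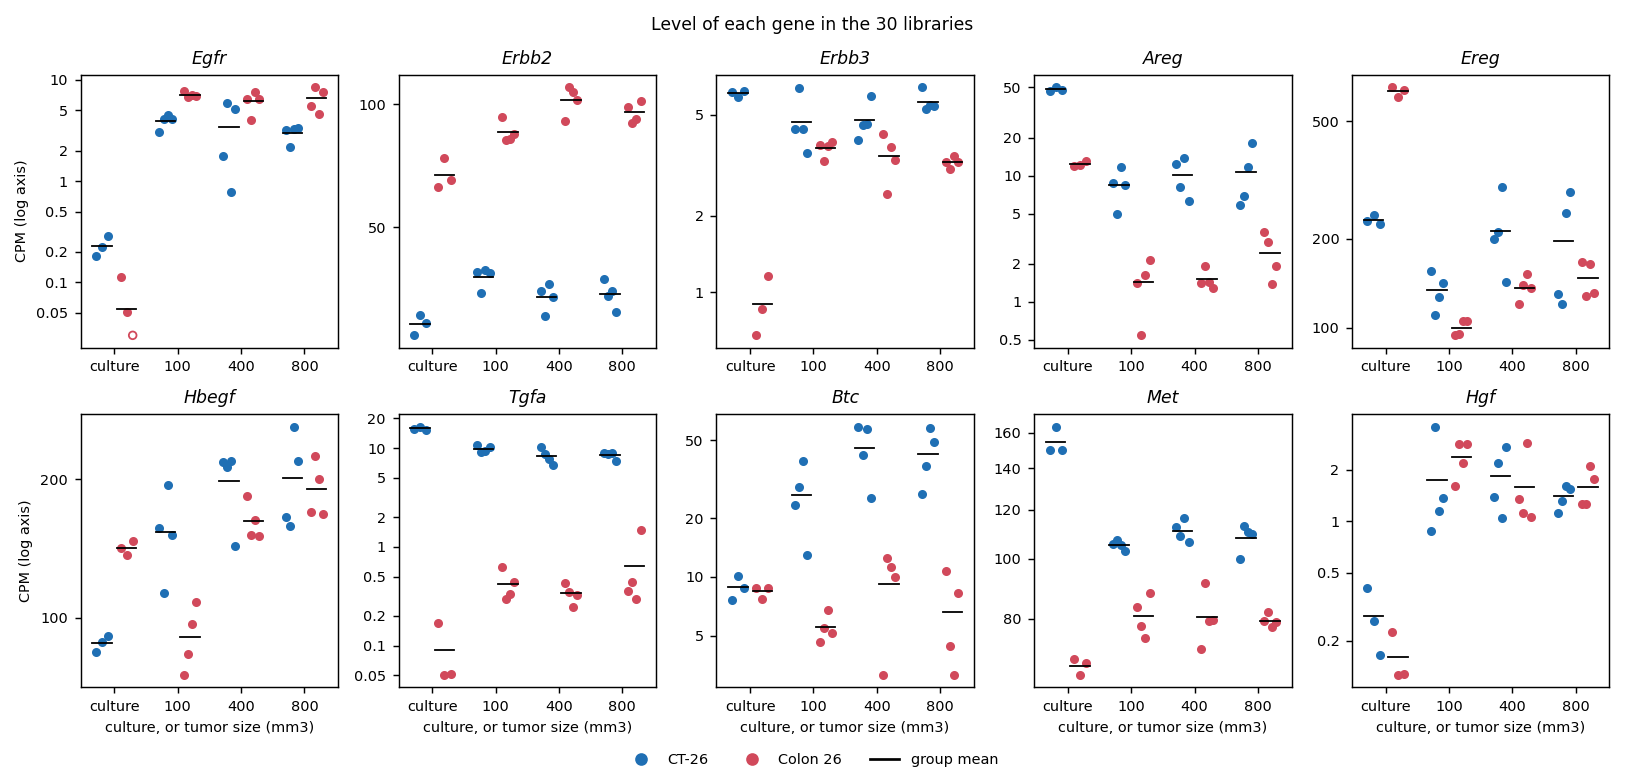
CPM of the 10 genes in the 30 libraries, by culture or tumor size (x axis) on a log y axis that differs between panels. Points are libraries (blue CT-26, red Colon 26, 3 per culture group and 4 per tumor group), black lines are group means, and the open point is a library with 0 counts, drawn at 0.03. Tgfa, Areg, Erbb2 and Met separate the models in all 4 pairs of groups, Egfr and Hgf lie under 0.5 CPM in cultures, and Btc separates the models in tumors but not in culture.

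Tgfa, which encodes TGF-alpha, and Areg, which encodes amphiregulin, were lower in Colon 26 in culture and at all 3 tumor sizes, Btc, which encodes betacellulin, was lower in its tumors, and Erbb2 was higher in all 4 comparisons. The models were compared by edgeR's quasi-likelihood test, and a gene was called differentially expressed (DE) if its Benjamini-Hochberg adjusted p was 0.1 or less and its log2 fold change was 1 or more in either direction. Log2 fold changes are given ± a standard error, taken as the absolute log2 fold change divided by the square root of the test's F statistic. In culture 6 of the 8 genes of the set that passed edgeR's filter on low counts were DE, 2 higher and 4 lower in Colon 26, where 22.9% of the 14334 genes tested were DE. Egfr and Hgf did not pass the filter there, and all 10 passed in tumors. In tumors of 100 mm3 and of 400 mm3 the count was 4 of 10, 1 higher and 3 lower, beside 13.2% and 14.3% of all genes tested. In tumors of 800 mm3 it was 5 of 10, 2 higher and 3 lower, beside 14.1%. The median log2 fold change of the tested members was -0.671 in culture and -0.405, -0.463 and -0.439 at the 3 sizes, and that of all genes tested was 0.013, -0.002, 0.028 and -0.006. The 4 comparisons use different libraries. How many of all genes have groups without overlap was not counted, so statements on overlap are a description.

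**Figure D2:**
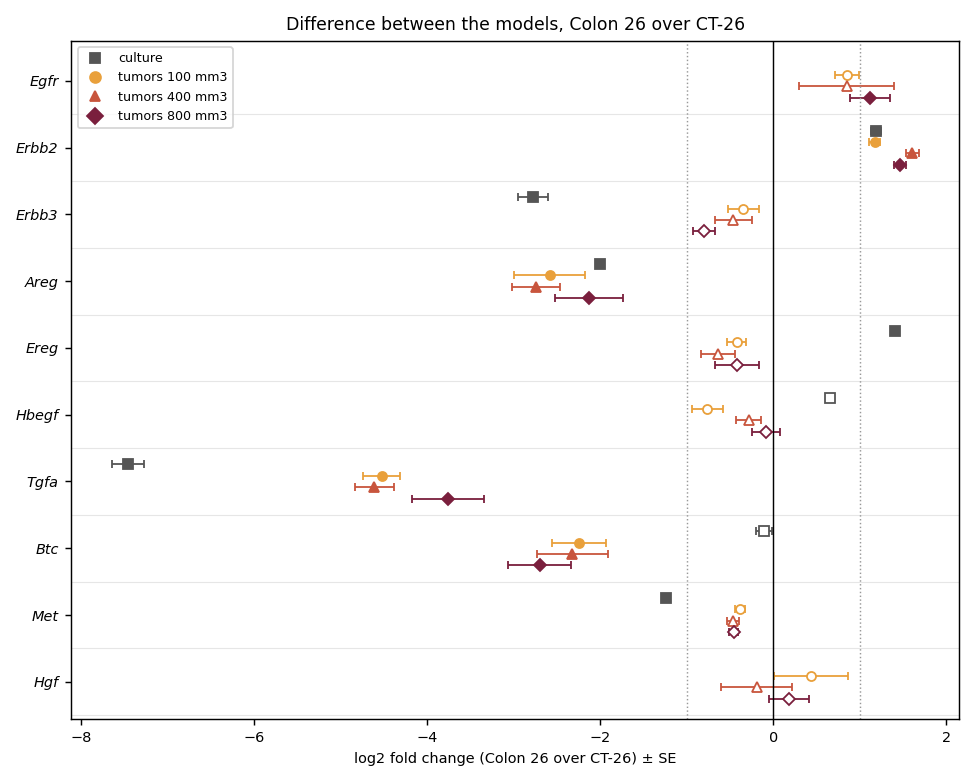
Log2 fold change of Colon 26 over CT-26 with its standard error (x axis) for each of the 10 genes (y axis), in culture and at 3 tumor sizes. Filled symbols are DE, open symbols are not, dotted lines mark a log2 fold change of 1 in either direction, and the culture values of Egfr and Hgf are left out because these genes were not tested there. Tgfa lies furthest from 0 in all 4 comparisons, and Ereg lies to the right of 0 in culture and to the left of it in tumors.

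Among the receptors, Erbb2 (chromosome 11, 98412470 to 98437716, plus strand, GRCm38) was DE in every comparison of the models. It was at 27.2, 30.5 and 29.1 CPM in CT-26 cultures and at 62.7, 73.7 and 65.2 in Colon 26 cultures. In tumors of 100 mm3 it was at 38.7, 34.6, 39.2 and 38.6 CPM in CT-26 and at 93.1, 81.6, 82.1 and 84.4 in Colon 26. Every Colon 26 library was above every CT-26 library, and this held at 400 mm3 (CT-26 up to 36.3, Colon 26 from 90.7) and at 800 mm3 (up to 37.4 and from 89.8). The log2 fold change was 1.18 ± 0.058 in culture and 1.17 ± 0.064, 1.61 ± 0.077 and 1.46 ± 0.072 at 100, 400 and 800 mm3, with adjusted p of 1.57e-11, 2.81e-06, 3.3e-06 and 2.94e-07. Exons of Erbb2 overlap exons of Mien1 on the other strand, and reads of the 2 genes are separate only if strand was used in counting, which is not given in the sources used here.

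Erbb3 (chromosome 10, 128567523 to 128589652, minus strand) went the other way in culture. It was at 6.13, 5.86 and 6.21 CPM in CT-26 cultures and at 0.678, 0.857 and 1.16 in Colon 26 cultures, and was lower in Colon 26 by a log2 fold change of -2.78 ± 0.18 (adjusted p = 3.72e-10). In tumors of 100 mm3 it was at 4.40, 6.36, 4.38 and 3.54 CPM in CT-26 and at 3.79, 3.27, 3.77 and 3.92 in Colon 26, and these groups overlapped. The log2 fold changes in tumors, -0.35 ± 0.18, -0.46 ± 0.21 and -0.80 ± 0.13, were not DE. Only the last had an adjusted p under 0.1 (0.148, 0.106 and 0.00051), and at 800 mm3 the groups did not overlap, with CT-26 from 5.26 and Colon 26 up to 3.44 CPM.

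Egfr (chromosome 11, 16752203 to 16918158, plus strand) had few counts in both cell lines. The CT-26 cultures held 4, 6 and 7 counts and the Colon 26 cultures 4, 2 and 0, which is 0.232 CPM (95% Poisson interval 0.135 to 0.371) and 0.0526 CPM (0.0193 to 0.115) over each group, and these intervals cover counting error only. Egfr was under the filter in culture, and DESeq2, edgeR with no filter and a fit over all 30 libraries each called it lower in Colon 26 cultures. In tumors of 100 mm3 it was at 3.03, 4.11, 4.53 and 4.06 CPM in CT-26 and at 7.80, 6.71, 7.01 and 6.95 in Colon 26, with every Colon 26 tumor above every CT-26 tumor. At 400 mm3 CT-26 tumors spread from 0.774 to 5.92 CPM (1.77, 5.92, 0.774 and 5.19) and overlapped Colon 26 tumors (6.41, 3.98, 7.53 and 6.51). At 800 mm3 the values were 3.16, 2.18, 3.29 and 3.37 CPM in CT-26 and 5.48, 8.50, 4.55 and 7.64 in Colon 26, again without overlap. The log2 fold change was 0.85 ± 0.14 at 100 mm3 (adjusted p = 0.000947, under the minimum fold change), 0.85 ± 0.55 at 400 mm3 (adjusted p = 0.238) and 1.116 ± 0.23 at 800 mm3 (adjusted p = 0.0024, DE). The call at 800 mm3 was lost without CT-26 replicate 2 (0.98) or without Colon 26 replicate 2 (0.97).

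Markers of fibroblasts moved with Egfr. Summed over 8 fibroblast markers, CT-26 tumors held 1407 to 2393, 1131 to 2399 and 1168 to 1752 CPM at the 3 sizes and Colon 26 tumors 2705 to 3483, 1872 to 2743 and 1559 to 3352, against 115 to 125 and 383 to 410 CPM in CT-26 and Colon 26 cultures. All 8 markers reached 1 CPM in every tumor, and Lum and Thy1 were under 0.1 CPM in every culture. Of the markers, 3 were DE higher and 1 lower in Colon 26 tumors of 100 mm3. The CT-26 tumor of 400 mm3 with the lowest Egfr, replicate 3, also had the lowest sums of fibroblast (1131 CPM) and macrophage markers (290.7 CPM) among all 24 tumors. As deviations from group means over the 24 tumors, Egfr and the summed fibroblast markers had a Pearson r of 0.693 and a Spearman rho of 0.616, and r was 0.629 without the 2 tumors farthest from the median of the marker sum. For the summed macrophage markers r was 0.704 and rho 0.385, and r was 0.507 without the 2 tumors farthest from the median of that sum. Egfr was not alone in this. For Hgf r was 0.499 and rho 0.543 with the macrophage sum, and r was -0.033 with the fibroblast sum. Negative values of r were found for Erbb2 (-0.555) and Btc (-0.517) with the macrophage sum, and for Ereg (-0.521) with the fibroblast sum. All these values share library and depth and are given as a description. The part of fibroblasts and macrophages in the results for Egfr and these genes was not tested.

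**Figure D3:**
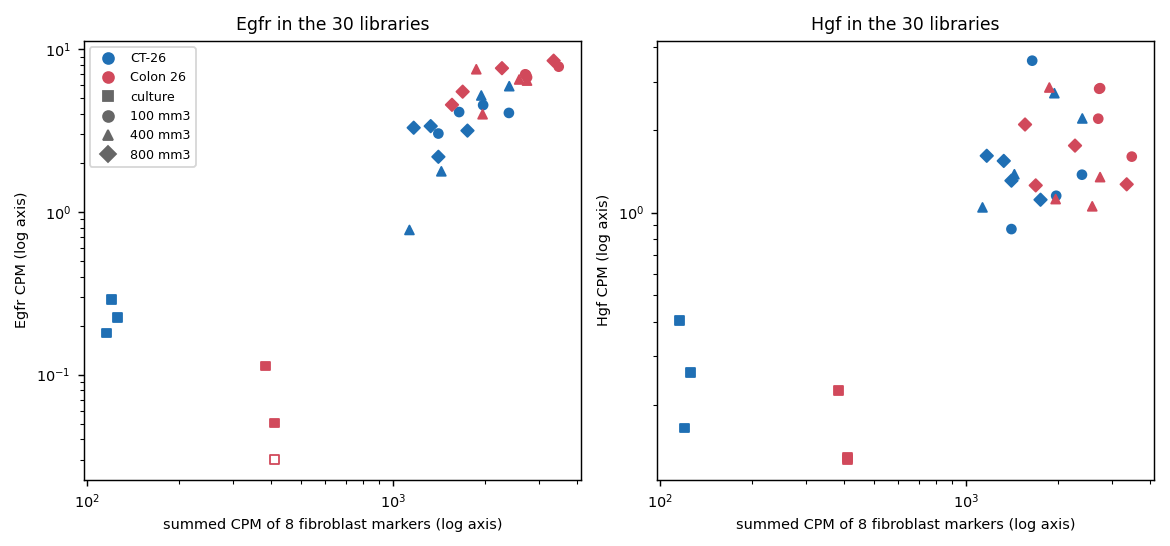
CPM of Egfr (left) and Hgf (right) against the summed CPM of 8 fibroblast markers in the 30 libraries, both axes on log scales. Squares are cultures, circles, triangles and diamonds are tumors of 100, 400 and 800 mm3, blue is CT-26 and red Colon 26, and the open square is a library with 0 Egfr counts, drawn at 0.03. Cultures lie at the lower left of both panels, Egfr is higher in tumors with higher marker sums, and Hgf shows no such order among tumors.

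The ligands Areg, Ereg and Btc lie with Epgn in 375.5 kb of chromosome 5 (91027464 to 91402994, GRCm38). The sequences before the starts of the 3 ligand genes that were lower in Colon 26 tumors are shown because all 3 were DE in the same direction there. They are the 250 bases upstream of the RefSeq start of Areg (chr5:91139349-91139598, plus strand), Btc (chr5:91402995-91403244, minus strand) and Tgfa (chr6:86194972-86195221, plus strand) in GRCm38.p6, written 5′ to 3′ along the gene, and capitals mark the motifs found.
Areg: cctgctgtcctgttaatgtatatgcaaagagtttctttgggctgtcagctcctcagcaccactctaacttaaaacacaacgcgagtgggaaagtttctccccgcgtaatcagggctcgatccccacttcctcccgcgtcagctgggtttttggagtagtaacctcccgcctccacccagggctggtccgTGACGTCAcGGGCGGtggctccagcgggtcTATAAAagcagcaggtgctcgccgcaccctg
Btc: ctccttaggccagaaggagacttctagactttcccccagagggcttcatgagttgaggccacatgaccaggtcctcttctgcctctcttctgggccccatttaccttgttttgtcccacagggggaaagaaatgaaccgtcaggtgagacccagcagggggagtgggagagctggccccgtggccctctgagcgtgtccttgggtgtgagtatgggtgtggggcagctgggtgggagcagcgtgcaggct
Tgfa: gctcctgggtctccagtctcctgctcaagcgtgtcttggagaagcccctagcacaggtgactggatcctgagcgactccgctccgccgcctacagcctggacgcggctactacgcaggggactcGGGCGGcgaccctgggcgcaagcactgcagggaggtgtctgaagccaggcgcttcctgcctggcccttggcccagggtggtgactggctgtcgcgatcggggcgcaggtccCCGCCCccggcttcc
Both strands were searched for 4 motifs, which do not overlap in these windows: TGANTCA (AP-1), TGACGTCA (the cAMP response element, CRE), GGGCGG (the GC box) and TATAAA (the TATA box). Over 32851 RefSeq windows of this length, 6.75% held the AP-1 motif, 1.55% the CRE, 32.7% the GC box and 12.4% the TATA box. The Areg window held a CRE that begins 61 bases before the start, a GC box at 52 and a TATA box at 31. The Tgfa window held GC boxes at 126 and 15 bases, and the Btc window held none of the 4 motifs. The GC box was shared by Areg and Tgfa, no motif of the 4 was in all 3 windows, and a match is a description of letters and not of a bound site. Among the 10 genes, 7 had a window in the set kept here, and no window is reported for Ereg, Erbb3 and Hbegf.

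Tgfa (chromosome 6, 86195223 to 86275719, plus strand) was the gene of the set with the largest difference between the models. It was at 15.7, 16.5 and 15.2 CPM in CT-26 cultures and at 0.169, 0.0504 and 0.0514 in Colon 26 cultures, where the libraries held 6, 2 and 2 counts. The level in CT-26 cultures was 180.1 times that of Colon 26 cultures, with a counting interval of 97.9 to 375.5 for the ratio, and the fitted log2 fold change was -7.46 ± 0.19 (adjusted p = 3.1e-15). Tumors of 100 mm3 had Tgfa at 10.7, 9.11, 9.22 and 10.2 CPM in CT-26 and at 0.620, 0.298, 0.336 and 0.444 in Colon 26. At 800 mm3 it was at 8.84, 8.69, 8.93 and 7.32 CPM in CT-26 and at 0.355, 0.443, 0.295 and 1.46 in Colon 26. No Colon 26 library reached the lowest CT-26 library in any pair of groups, and Colon 26 replicate 4 at 800 mm3 stood above the other 3. The log2 fold change was -4.53 ± 0.22, -4.61 ± 0.23 and -3.76 ± 0.41 at 100, 400 and 800 mm3 (adjusted p = 1.4e-06, 3.97e-06 and 4.09e-05), and it was -4.53 at 800 mm3 without that library. In culture it was -8.19 without Colon 26 replicate 1. Exons of Tgfa overlap Gm43917 on the other strand.

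Areg (chromosome 5, 91139599 to 91148432, plus strand) was at 46.9, 50.4 and 48.0 CPM in CT-26 cultures and at 11.9, 12.2 and 13.1 in Colon 26 cultures. At 100 mm3 it was at 8.72, 4.94, 11.8 and 8.42 CPM in CT-26 and at 1.40, 0.541, 1.64 and 2.14 in Colon 26. At 800 mm3 the values were 5.83, 6.89, 11.8 and 18.2 CPM in CT-26 and 3.55, 2.98, 1.37 and 1.90 in Colon 26. Every Colon 26 library was below every CT-26 library of its pair of groups, also at 400 mm3. The log2 fold change was -2.001 ± 0.048 in culture (adjusted p = 1.78e-15) and -2.59 ± 0.41, -2.74 ± 0.28 and -2.13 ± 0.40 at the 3 sizes (adjusted p = 0.000805, 0.000103 and 0.00128). The CT-26 tumor with the highest Areg, replicate 4 at 800 mm3, also held 80.1 CPM of 4 keratinocyte markers, against 2.92 to 5.92 in the other 11 CT-26 tumors. Without it the log2 fold change at 800 mm3 was -1.75, and Areg remained DE.

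Btc (chromosome 5, 91357261 to 91402994, minus strand) was not DE between the 2 cell lines and was DE between their tumors. It was at 7.61, 10.1 and 8.75 CPM in CT-26 cultures and at 8.81, 7.72 and 8.79 in Colon 26 cultures, with a log2 fold change of -0.11 ± 0.091 (adjusted p = 0.295). The 100 mm3 tumors had it at 23.4, 28.8, 39.4 and 12.9 CPM in CT-26 and at 4.64, 5.46, 6.79 and 5.17 in Colon 26. At 400 mm3 it was at 58.9, 41.9, 57.2 and 25.2 CPM in CT-26 and at 3.15, 12.4, 11.2 and 9.93 in Colon 26. The tumor groups did not overlap at any size. The log2 fold change was -2.25 ± 0.31, -2.32 ± 0.41 and -2.70 ± 0.36 at 100, 400 and 800 mm3 (adjusted p = 0.000383, 0.00185 and 0.000157). In the same comparisons neutrophil markers were DE lower in Colon 26 at 400 mm3 (4 of 4) and 800 mm3 (3 of 4), leukocyte markers at 400 mm3 (2 of the 4 tested) and skeletal muscle markers at 800 mm3 (4 of 4), and their part in the differences between the models at these sizes was not tested.

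Ereg (chromosome 5, 91074622 to 91093646, plus strand), which encodes epiregulin and ends 46.0 kb before Areg, was higher in Colon 26 cells and not in Colon 26 tumors. It was at 229, 241 and 225 CPM in CT-26 cultures and at 653, 603 and 639.7 in Colon 26 cultures, a log2 fold change of 1.41 ± 0.033 (adjusted p = 1.24e-15). Among tumors of 100 mm3 it was at 156, 111, 128 and 142 CPM in CT-26 and at 94.3, 95.3, 106 and 105 in Colon 26, without overlap and with the Colon 26 tumors lower. The log2 fold change there was -0.42 ± 0.11 (adjusted p = 0.0101), under the minimum for a call. At 400 and 800 mm3 the groups overlapped, with log2 fold changes of -0.64 ± 0.20 and -0.42 ± 0.26 (adjusted p = 0.0263 and 0.201). Exons of Ereg overlap Gm19610 on the other strand.

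Hbegf (chromosome 18, 36504927 to 36515805, minus strand), which encodes the heparin-binding ligand HB-EGF, was not DE between the models in any group. It was at 84.4, 88.7 and 91.4 CPM in CT-26 cultures and at 142, 137 and 147 in Colon 26 cultures, a log2 fold change of 0.65 ± 0.035 (adjusted p = 5.49e-11). Tumors of the smallest size had it at 157, 113, 194 and 151 CPM in CT-26 and at 75.2, 83.4, 97.1 and 108 in Colon 26, with the Colon 26 tumors lower and no overlap (-0.76 ± 0.17, adjusted p = 0.0062). The groups overlapped at 400 and 800 mm3, where the log2 fold changes were -0.28 ± 0.14 and -0.085 ± 0.16 (adjusted p = 0.144 and 0.69).

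Met (chromosome 6, 17463800 to 17573980, plus strand) was lower in Colon 26 in every pair of groups, and was DE in culture. It was at 149.8, 164 and 149.9 CPM in CT-26 cultures and at 69.0, 64.9 and 67.8 in Colon 26 cultures, and was DE with a log2 fold change of -1.24 ± 0.033 (adjusted p = 7.04e-15). Over the 12 tumors of each model Met was at 100.0 to 116 CPM (median 108) in CT-26 and at 71.4 to 91.3 (median 79.3) in Colon 26, so no Colon 26 tumor reached the lowest CT-26 tumor. The log2 fold changes of -0.38 ± 0.062, -0.46 ± 0.071 and -0.46 ± 0.055 had adjusted p of 0.000891, 0.000846 and 7.51e-05 and were under the minimum for a call.

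Hgf (chromosome 5, 16553495 to 16620152, plus strand) was present in tumors and near absent from both cell lines. The cultures held 9, 7 and 4 counts in CT-26 and 8, 5 and 5 in Colon 26, or 0.273 CPM (95% Poisson interval 0.167 to 0.421) and 0.158 CPM (0.0936 to 0.2495) over each group. At 100 mm3 it was at 0.872, 3.58, 1.15 and 1.38 CPM in CT-26 and at 1.60, 2.84, 2.20 and 2.83 in Colon 26. All 3 pairs of tumor groups overlapped, and the log2 fold changes were 0.43 ± 0.43, -0.19 ± 0.41 and 0.18 ± 0.23 (adjusted p = 0.431, 0.735 and 0.551). The CT-26 tumor with 3.58 CPM, replicate 2, also had the highest leukocyte marker sum of all tumors (222 CPM, against 75.6 to 89.8 in the other 3 of its group). Without it Hgf was DE at 100 mm3, higher in Colon 26 with a log2 fold change of 1.05 (adjusted p = 0.0145), and the part of leukocytes in this was not tested. An exon of Hgf overlaps Gm43489 on the same strand, so some of its reads may be split between the 2 genes.

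Levels of different genes were compared by FPKM, the authors' count scaled to gene length and library size. In CT-26 cultures the order by mean FPKM was Ereg (56.4), Areg (39.99), Hbegf (37.3) and Met (23.9), with Erbb2 at 5.78, Tgfa at 3.50, Btc at 3.07 and Erbb3 at 1.01. In Colon 26 cultures Ereg (151.5) and Hbegf (59.1) led, followed by Erbb2 (13.3), Met (10.3) and Areg (10.1). Hbegf led in all 6 tumor groups, from 39.4 FPKM in Colon 26 tumors of 100 mm3 to 83.0 in CT-26 tumors of 800 mm3, and Ereg came next in each. Met was above Erbb2 in CT-26 tumors of every size (15.5, 15.8 and 15.7 against 7.52, 6.50 and 6.74 FPKM), and Erbb2 was above Met in Colon 26 tumors of every size (17.5, 20.7 and 19.4 against 12.2, 12.0 and 11.9). Egfr was lowest of the 10 in CT-26 tumors (0.458, 0.390 and 0.329 FPKM), and Tgfa was lowest in Colon 26 tumors (0.0963, 0.0759 and 0.144).

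Summed over the 5 ligands, FPKM was 140.25 ± 1.18 (SD, n = 3) in CT-26 cultures and 223.6 ± 5.05 in Colon 26 cultures. The sum in tumors of 100 mm3 was 115.3 ± 21.2 (SD, n = 4) in CT-26 and 67.7 ± 8.94 in Colon 26, so the order of the models was the opposite of that in culture. Areg made up 28.5% ± 0.176 of the sum in CT-26 cultures and 4.51% ± 0.249 in Colon 26 cultures, while Ereg made up 40.2% ± 0.839 and 67.7% ± 0.728. Hbegf made up, in tumors of 100 mm3, 55.8% ± 2.87 in CT-26 and 58.1% ± 2.35 in Colon 26. Btc made up 7.92% ± 3.19 of the sum in CT-26 tumors of 100 mm3 and 2.93% ± 0.413 in Colon 26 tumors. Shares and sums were not tested, and a share falls when another ligand rises.

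**Figure D4:**
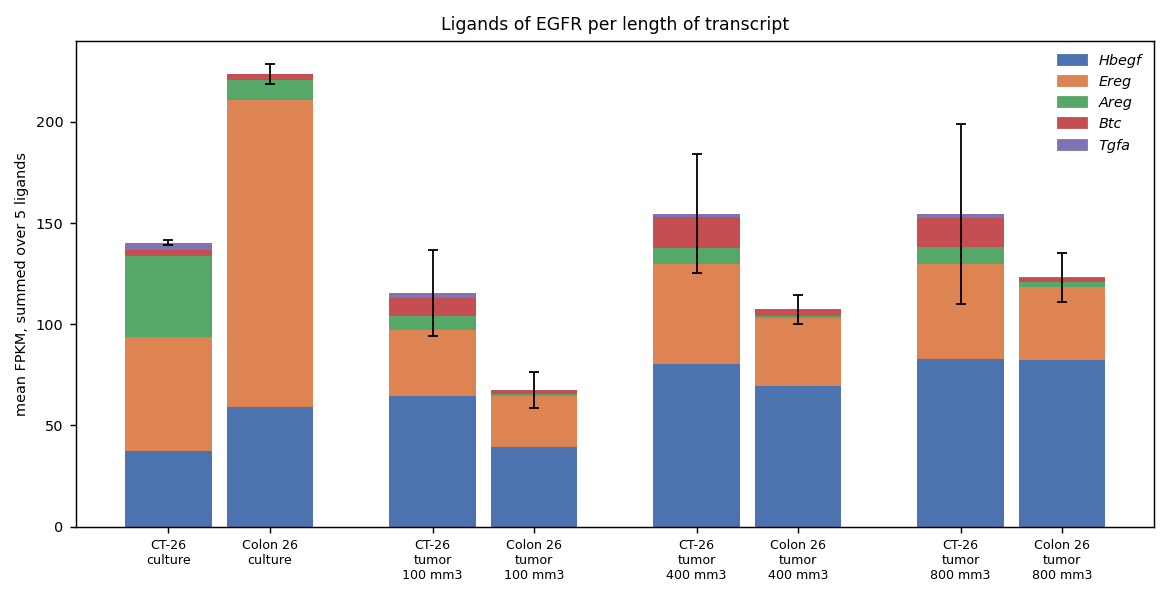
Mean FPKM of 5 EGFR ligands stacked for each of the 8 groups (x axis), with a y axis from 0; error bars are the SD of the sum over 3 cultures or 4 tumors. The Colon 26 cultures have the highest sum, 223.6, mostly Ereg, and the Colon 26 tumors of 100 mm3 the lowest, 67.7, and Tgfa is visible only in CT-26.

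Tumors were compared with the cultured cells of the same model to ask which of the 10 transcripts differ between the line and the tumor it grows. In both models Egfr and Hgf were higher in tumors and Areg was lower. Btc was higher in CT-26 tumors, and Erbb3 and Tgfa were higher and Ereg lower in Colon 26 tumors, and for these 4 genes the 2 models differed in the test of the difference given further on. In CT-26, 4 of the 10 genes were DE in tumors of 100 mm3, of which 3 rose and 1 fell, where 32.2% of all genes tested were DE. In Colon 26, 6 of the 10 were DE, 4 higher and 2 lower, beside 26.9%. The median log2 fold change of the 10 was -0.002 in CT-26 and 0.387 in Colon 26, and that of all genes tested was 0.06 and 0.052.

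Egfr rose, with a log2 fold change of 4.05 ± 0.27 in CT-26 (adjusted p = 5.16e-06) and 7.05 ± 0.37 in Colon 26 (adjusted p = 2.93e-07). As the cultures held few counts, the ratios of the means are 17.0 with a counting interval of 10.6 to 29.1 in CT-26, and 135 with an interval of 62.1 to 368.5 in Colon 26. Hgf rose by 2.65 ± 0.62 and 3.95 ± 0.34 (adjusted p = 0.00489 and 6.8e-06), with ratios of 6.39 (interval 4.14 to 10.5) and 15.0 (9.485 to 25.3). The fitted Egfr value in Colon 26 was 7.9995 without culture replicate 1, and that of Hgf in CT-26 was 2.01 without tumor replicate 2. With limma on log2(FPKM + 1), which understates changes of low genes, neither gene was called in either model, with 0.50 and 0.89 for Egfr and 0.50 and 0.77 for Hgf in CT-26 and Colon 26. Markers of fibroblasts (7 of 8 DE in each model), macrophages (5 of 6 in CT-26 and 6 of 6 in Colon 26), leukocytes (4 of the 4 tested in each), endothelium (4 of 4 in each), skeletal muscle (4 of 4 in each), neutrophils (2 of the 2 tested in CT-26 and 4 of 4 in Colon 26) and, in Colon 26, adipocytes (3 of the 3 tested) rose in the same comparisons. So did 2 of the 4 colon epithelium markers tested in CT-26 and 3 of the 4 tested in Colon 26. Of the Schwann cell markers tested, 1 of 2 rose in Colon 26 and 0 of 1 in CT-26. The part of all these markers in the Egfr and Hgf results was not tested.

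**Figure D5:**
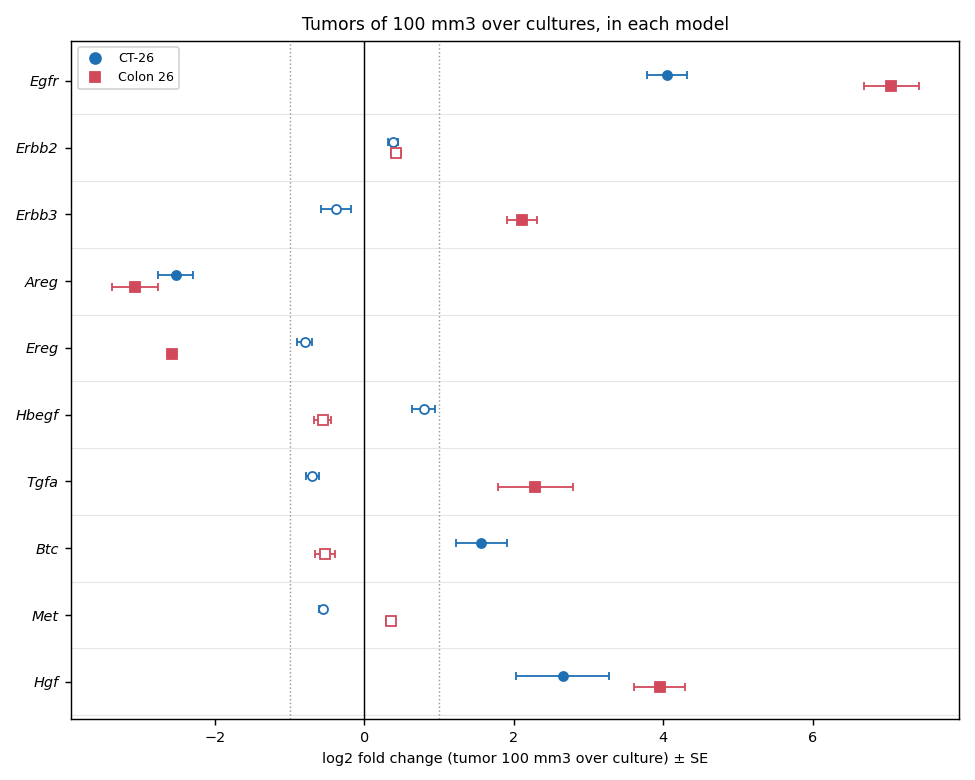
Log2 fold change of tumors of 100 mm3 over cultures with its standard error (x axis) for the 10 genes (y axis), in CT-26 (circles) and Colon 26 (squares). Filled symbols are DE and dotted lines mark a log2 fold change of 1 in either direction. Egfr and Hgf lie to the right and Areg to the left in both models, and Erbb3, Hbegf, Tgfa, Btc and Met lie on opposite sides of 0 in the 2 models.

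Areg fell, with a log2 fold change of -2.53 ± 0.23 in CT-26 and -3.07 ± 0.31 in Colon 26 (adjusted p = 2.78e-05 and 2.09e-05). Ereg fell, with -2.58 ± 0.055 in Colon 26 (adjusted p = 2.14e-09), and its value in CT-26 was -0.80 ± 0.10 (adjusted p = 0.000184), under the minimum for a call. Btc rose by 1.56 ± 0.34 in CT-26 (adjusted p = 0.00336), and its value in Colon 26 was -0.53 ± 0.13 (adjusted p = 0.00522). Erbb3 rose by 2.11 ± 0.20 in Colon 26 (adjusted p = 1.14e-05) from a mean of 0.897 to 3.69 CPM. Tgfa rose by 2.29 ± 0.50 in Colon 26 (adjusted p = 0.00259), from 0.0877 to 0.424 CPM with a counting interval of 2.63 to 10.1 for the ratio, and stayed far below the 9.79 CPM of CT-26 tumors. The Tgfa call was lost with a minimum mean count of 10, which removes the gene, and with limma on log2(FPKM + 0.1) (0.71) and log2(FPKM + 1) (0.10). The Erbb3 call was also lost on log2(FPKM + 1) (0.51). The rises of cell type markers given above were in these same comparisons, and their part in the changes of these genes was not tested either.

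Whether the difference between the models changed from culture to tumors of 100 mm3 was tested as an interaction. It changed for 6 of the 10 genes, 3 in each direction, where 17.6% of the 16501 genes tested changed, and their median was 0.428 beside -0.02 for all genes tested. The difference of Colon 26 over CT-26 moved up in tumors for Egfr (2.94 ± 0.59, adjusted p = 0.00106), Erbb3 (2.44 ± 0.29, adjusted p = 1.32e-05) and Tgfa (2.93 ± 0.40, adjusted p = 4.93e-05). It moved down for Ereg (-1.83 ± 0.13, adjusted p = 1.01e-07), Hbegf (-1.40 ± 0.21, adjusted p = 0.000115) and Btc (-2.14 ± 0.39, adjusted p = 0.000525). The value for Met was 0.86 ± 0.077 (adjusted p = 1.11e-06), under the minimum for a call. Erbb2 (-0.0026 ± 0.09, adjusted p = 1), Areg (-0.60 ± 0.42, adjusted p = 0.28) and Hgf (1.24 ± 0.78, adjusted p = 0.22) did not pass the threshold. The interaction uses the libraries of the culture and 100 mm3 comparisons and is no separate evidence beside them. In the same test 3 of 6 macrophage markers moved up and 0 down, and of 8 fibroblast markers 2 moved up and 2 down. Their part in the 6 calls was not tested. It was 3.87 for Egfr and 3.67 for Tgfa without Colon 26 culture replicate 1, and Hgf was called at 1.87 (adjusted p = 0.0117) without CT-26 tumor replicate 2.

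Tumors of 800 mm3 were compared with those of 100 mm3 to ask whether these levels follow growth. In CT-26 none of the 10 genes was DE (0 by edgeR, 0 by DESeq2, and 0 at an unadjusted p under 0.05), and edgeR called 0% of all 15298 genes tested, where 1610 had an unadjusted p under 0.05 and DESeq2 called 39. The log2 fold changes of the 10 ran from -0.39 (Egfr) to 0.71 (Btc). In Colon 26, 1 of the 10 was DE, beside 1.33% of all genes. Hbegf rose from 75.2, 83.4, 97.1 and 108 CPM at 100 mm3 to 169.7, 225, 199.9 and 168 CPM at 800 mm3, without overlap, with tumors of 400 mm3 at 184, 151, 163 and 150.2. Its log2 fold change was 1.05 ± 0.13 (adjusted p = 0.00818), just over the minimum, and it was under it without replicate 1 of 100 mm3 (0.97) or replicate 2 of 800 mm3 (0.96). Ereg had a log2 fold change of 0.55 ± 0.094 (adjusted p = 0.0216), with 800 mm3 tumors above all 100 mm3 tumors, and was under the minimum for a call. The skeletal muscle markers, 4 of 4, were DE lower at 800 mm3 in Colon 26, from 103 to 1182 CPM in sum at 100 mm3 to at most 1.03, and their part in the Hbegf result was not tested. The difference between the models changed with size for none of the 10 genes (0 by edgeR and DESeq2, 3 at an unadjusted p under 0.05). Here edgeR called 0.0308% of all 16238 genes tested, where 2031 had an unadjusted p under 0.05 and DESeq2 called 114. The Hbegf value was 0.67 ± 0.26 (adjusted p = 0.294).

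Other genes of the pathway were taken from 7 lists with 55 genes. Erbb4, the fourth ErbB receptor, had at most 0.0514 CPM in any library, and Nrg3 at most 0.164. Nrg1, which encodes a ligand of ERBB3, was at 44.4 to 52.0 CPM in CT-26 cultures and 93.6 to 100.0 in Colon 26 cultures. The lists were chosen with earlier results of these data known. Of the list genes tested between the models, 11 of 46 (23.9%) were DE in culture and 5, 7 and 7 of 50 (10.0, 14.0 and 14.0%) at the 3 tumor sizes, near the shares of all genes given above. Between tumors and cultures 21 of 50 (42.0%) were DE in CT-26 and 21 of 51 (41.2%) in Colon 26, beside 32.2% and 26.9% of all genes tested. None was DE between sizes in either model (0 by edgeR).

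In all 4 comparisons of the models, the list genes called DE with one sign and with no overlap of groups were Timp3, Gab1 and Nrg2, higher in Colon 26, and Egr1, lower. The share of all genes that meet this rule was not counted. Timp3, an inhibitor of the metalloproteinases that release these ligands, was at 1.85 to 2.13 CPM in CT-26 cultures and 662 to 700.4 in Colon 26 cultures, and at 37.1 to 54.3 and 391 to 599 CPM in tumors of 100 mm3. Gab1, a docking protein that binds MET, was at 0 to 0.149 CPM in CT-26 cultures and 17.3 to 18.3 in Colon 26 cultures, and at 3.98 to 8.70 and 20.8 to 26.0 CPM in tumors of 100 mm3. Nrg2, another neuregulin, was at 1.89 to 2.54 and 6.81 to 8.22 CPM in the cultures. Egr1, an early gene of MAPK signaling, was at 580.0 to 620 CPM in CT-26 cultures and 213 to 224 in Colon 26 cultures, and at 208 to 306 and 73.2 to 109.5 CPM in tumors of 100 mm3. The log2 fold changes of Egr1 were -1.48 ± 0.029, -1.61 ± 0.16, -1.52 ± 0.23 and -1.14 ± 0.28.

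In the interaction of model and tissue 13 of 52 list genes (25%) were DE, 4 up and 9 down, beside 17.6% of all genes tested, 8.29% up and 9.31% down. Those that moved up were Egf, Plat, Spint1 and Gab2, and those that moved down were Timp3, Hpn, Plau, Spint2, Errfi1, Gab1, Spry4, Etv4 and Fosl1. Plau, which encodes the protease urokinase, was at 0.0822 to 0.261 CPM in CT-26 cultures and 23.3 to 25.4 in Colon 26 cultures, and at 81.0 to 180 and 88.5 to 165 CPM in tumors of 100 mm3 (interaction -6.85 ± 0.63). Errfi1, a feedback inhibitor of EGFR, was at 223 to 243 CPM in CT-26 cultures and 353 to 377 in Colon 26 cultures, and at 331 to 589 and 162 to 194 CPM in tumors of 100 mm3 (interaction -1.83 ± 0.20). Spry4 (-1.25 ± 0.15), a feedback inhibitor of MAPK signaling, and Etv4 (-1.05 ± 0.13) and Fosl1 (-1.31 ± 0.15), transcription factors induced by it, moved down as well. Of the 16 MAPK target genes, 3 changed in this test and 13 did not pass the threshold, a share near the 17.6% of all genes tested.

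For each of the 10 genes, the 3 genes most like it were found over the 24 tumors, by Pearson's r of log2 CPM as deviations from group means among 13497 genes with a mean of at least 1 CPM. Egfr was most like Col5a2 (0.951), Sulf1 (0.949) and Loxl1 (0.935), which encode a fibrillar collagen, an extracellular sulfatase and an enzyme that crosslinks elastin. Btc was most like Zfp740 (0.903), Sox9 (0.898) and Ghr (0.891), and Ereg like Nipal1 (0.882), Samd8 (0.871) and Map1b (0.87). Areg was most like Acsbg1 (0.843), Zfp703 (0.787) and Lrsam1 (0.778), and Hgf like Gm15922 (0.849), Peli1 (0.825) and Alpk1 (0.819). Tgfa was most like Ccdc92 (0.821), Gm5930 (0.781) and Gm12918 (0.761), and Hbegf like Plaur (0.758), Kctd13 (0.747) and Lrp12 (0.732), of which Plaur encodes the receptor of urokinase. Met was most like Vwa8 (0.823), Fbxo21 (0.814) and Fam126b (0.809), Erbb2 like Cav1 (0.777), Zfp629 (0.76) and Arhgap39 (0.758), and Erbb3 like Gm47015 (0.796), Kctd7 (0.782) and Stk26 (0.772). Spearman's rho of the same deviations ranged from 0.404 (Tgfa and Gm12918) to 0.903 (Btc and Zfp740). For Egfr rho was 0.81 with Col5a2, 0.87 with Sulf1 and 0.721 with Loxl1. Without centring on group means r ranged from -0.797 (Met and Vwa8) to 0.975 (Btc and Ghr), and the libraries share depth and tumor composition, so these values are a description.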

How the data were processed

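Poly-A RNA-seq libraries were made from 6 cultures and 24 tumors. The authors processed reads in Array Studio 10.0.1.118 with Ensembl release 78 and deposited estimated counts and FPKM per gene for 53431 genes; the aligner's settings, the genome build and strand handling are not given in the sources used here. The submitters' processing notes name DESeq2 1.24.0. Of the nonzero deposited counts 23.0% were not whole, and they were rounded. Library totals were 21384730 to 39722586, and intervals cover counting error only. Gene symbols were found for 97.7% of IDs.

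Groups came from the labels. Each comparison was fitted to its own libraries with edgeR 4.0.16 (TMM, filterByExpr, quasi-likelihood test; R 4.3.3), p-values were adjusted by Benjamini-Hochberg over all genes tested, and a call needed an adjusted p of 0.1 or less and a log2 fold change of 1 or more in either direction. The test was checked on simulated counts. Nothing says that the 3 cultures of a line were grown separately, so p-values there may measure technical spread. Alternatives were DESeq2 1.42.0, other normalizations, filters and thresholds, 1 fit over 30 libraries, limma 3.58.1 on log2(FPKM + 1) and log2(FPKM + 0.1) of the deposited FPKM, and each library left out. Genes outside the 10 were named where they were DE the same way in all 4 comparisons of the models with no overlap, or in the interaction. The 10 genes and the gene lists were chosen with earlier results of these data known. Positions are from GENCODE M21 (GRCm38).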

Additional observations from a re-analysis of the deposited data

Results flagged for a closer look

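In 6 of the 60 sets of 4 tumors (10 genes in 6 groups), 1 tumor stood apart from the other 3 by Dixon's test at its 95% critical value, where chance gives about 1 in 20. Erbb2 was at 34.55 CPM in CT-26 replicate 2 of 100 mm3, with the other 3 at 38.6 to 39.2. Erbb3 was at 6.43 CPM in CT-26 replicate 1 of 800 mm3, with the others at 5.26 to 5.44. Hbegf was at 143.2 CPM in CT-26 replicate 4 of 400 mm3, with the others at 212.6 to 218.5. Tgfa was at 7.32 CPM in CT-26 replicate 4 of 800 mm3 (others 8.69 to 8.93) and at 1.46 CPM in Colon 26 replicate 4 of 800 mm3 (others 0.295 to 0.443). Hgf was at 2.86 CPM in Colon 26 replicate 3 of 400 mm3, with the others at 1.05 to 1.35.

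The difference of Colon 26 over CT-26 itself differed between tumors of 100 mm3 and culture for 6 genes by edgeR's interaction test. On the log2 scale it was 2.94 for Egfr, 2.44 for Erbb3, 2.93 for Tgfa, -1.83 for Ereg, -1.40 for Hbegf and -2.14 for Btc, and culture and tumor libraries belong to separate library series, which cannot be told apart from the tissue.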

How the results depend on the processing

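Of 661 alternative values of the 36 called fold changes, 645 kept their direction and their call, 16 lost the call and 0 reversed. Those with other thresholds reuse the main fit, so their direction could not change. Without a minimum fold change no call could be lost either. The Tgfa call in Colon 26 tumors over culture, lost where a mean count filter removed the gene, is not among the 16. No paired analysis was possible because the labels give no replicate numbers that pair samples across groups. Without a minimum fold change 8 of the 10 genes passed between models at 100 mm3, 9 and 10 between tumors and culture in CT-26 and Colon 26, and 2 between sizes in Colon 26. At that setting 56.5%, 75.5%, 78.9% and 6.67% of all genes tested passed in the same comparisons, in that order. With limma on log2(FPKM + 1), which compresses low values, 2, 2 and 3 passed for tumors over culture in CT-26 (Egfr and Hgf lost), in Colon 26 (Egfr, Erbb3, Tgfa and Hgf lost) and in the interaction (Egfr, Erbb3 and Tgfa lost). In these comparisons 2648, 1946 and 1255 genes passed, of the 15370, 15946 and 16501 tested. In the 4 model comparisons 5, 4, 4 and 4 genes of the set passed at that setting, beside 1519, 861, 951 and 914 genes of the table. With each library left out in turn the count was 4 to 5 at 100 mm3, 4 to 5 at 800 mm3, 6 to 7 in the interaction and 0 to 1 for size in Colon 26, and constant otherwise. Egfr passed at 400 mm3 on log2(FPKM + 0.1) (1.07) and not at 800 mm3 on log2(FPKM + 1) (0.44). DESeq2 called 309 genes between sizes in Colon 26, where edgeR called 205.

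The 39 values that reversed belong to fold changes that were not called. The Erbb2 interaction was 0.0475 with DESeq2, 0.0556 with RLE factors, 0.0205 with library size only, 0.0072 with a mean count of at least 10, 0.0501 over 30 libraries, 0.0494 and 0.028 on log2(FPKM + 1) and log2(FPKM + 0.1), and -0.056 to 0.0653 with a library left out. The Ereg size interaction was 0.0072 with DESeq2 and with RLE factors, 0.0253, 0.0043, 0.0977 and 0.1047 under library size only, 30 libraries and both FPKM scales, and -0.1711 to 0.2502 with a library left out. The Areg interaction was 0.0511 on log2(FPKM + 1). With 1 library left out in turn, Hgf at 400 mm3 ran from -0.6286 to 0.0557, Hbegf at 800 mm3 from -0.1885 to 0.058, and the Tgfa size interaction from -0.0103 to 1.0089. For size, Hgf and Areg in CT-26 ran from -0.5394 to 0.291 and from -0.0494 to 0.5362. In Colon 26, Met ran from -0.0819 to 0.0113, Btc from -0.0806 to 0.4767, Egfr from -0.292 to 0.0053 and Tgfa from -0.2221 to 0.7964. Egfr, Hgf, Tgfa and Erbb3 had a group mean under 1 CPM, and few counts there limit how precisely their fold changes are known.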
